A study of Homo sapiens with 17 samples.

Results

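The subunits of RNA polymerases I, II and III and of the Mediator complex were followed in YB5 cells treated with toyocamycin. The members were the genes whose symbol is POLR1, POLR2 or POLR3 followed by letters, or MED followed by a number, with the L variants. This gave 64 of the 19141 genes in the count table, with 8 POLR1, 16 POLR2, 10 POLR3 and 30 MED genes. POLR2J3 stands for 2 gene identifiers (ENSG00000168255 and ENSG00000285437), which are given apart, and with POLR2J2 these are near-identical copies of POLR2J, so their counts are uncertain. All 64 members passed the filter on low counts in both fits. YB5 is a line derived from the SW48 colon cancer line, with an inserted CMV promoter that is silenced by DNA methylation and drives GFP. The cells received DMSO or 250 nM toyocamycin, an adenosine analogue, and all libraries came from polyA RNA of this line. There were 2 libraries per arm at 2 h, 1 DMSO and 2 toyocamycin libraries at 10 h, 1 per arm at 24 h and at 48 h, and 3 per arm at the last time point, which is 72 h in the sample labels and 96 h in the paper.

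RNA polymerase I makes the large ribosomal RNA precursor, RNA polymerase II makes messenger RNA, and RNA polymerase III makes transfer RNA, the small ribosomal RNA and other short RNAs. The polymerases each have a catalytic pair of large subunits, share a set of small subunits, and differ in the stalk and the added subcomplexes. Mediator is built of a head, a middle and a tail around the scaffold MED14, and relays signals from activators to RNA polymerase II, while a detachable kinase module with MED12 and MED13 modulates it.

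Between 8735465 and 22121364 reads were counted per library, the fewest in replicate 2 of toyocamycin at 10 h. The top 100 genes of a library took 18.6 to 22.2% of its counts in DMSO and 34.5 to 37.4% in the toyocamycin libraries from 24 h on. The share of counts on mitochondrially encoded genes was 0.917 to 6.55%. The 10 colon epithelial markers summed to between 5992 and 6935 normalised counts (CPM, counts scaled to library size) in DMSO at the last time point and to between 559 and 588 CPM in toyocamycin. CDX1 had no counts in either arm there, nor KRT20 in toyocamycin, and of the 8 tested 6 were lower and 2 higher. The summed markers of fibroblasts, endothelium and immune cells reached at most 21.8, 12.3 and 4.53 CPM, all in replicate 2 of toyocamycin at 10 h, against 0.79, 0.64 and 0.50 CPM in replicate 1. That library thus stood apart, and it also had the highest mitochondrial share (6.55%). All 5 fibroblast markers were higher in toyocamycin at the last time point, where they summed to 2.26, 21.5 and 2.43 CPM against 0.46 to 1.14 CPM in DMSO, as were 1 of the 2 endothelial and 1 of the 2 immune markers tested. The part of these shifts in the results below was not tested, and in bulk RNA a change in the number of cells of a kind and a change in RNA per cell cannot be told apart.

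The members together took 0.384 to 0.431% of all counts in the DMSO libraries. In toyocamycin this share was 0.358 and 0.372% in the 2 libraries at 2 h and 0.244 and 0.216% in those at 10 h. It was 0.267% at 24 h, 0.327% at 48 h and 0.285 to 0.312% in the 3 libraries at the last time point. The lowest summed share was thus at 10 h, and every toyocamycin library lay below every DMSO library on this scale of raw totals. After TMM scaling the direction turned from 24 h on. The members then summed to 3075 to 3539 CPM in the DMSO libraries and to 3144 and 3060 CPM in toyocamycin at 2 h, 2895 and 2085 CPM at 10 h, 4065 CPM at 24 h, 4256 CPM at 48 h and 3929 to 4133 CPM at the last time point. On that scale the 10 h libraries lay below and the later toyocamycin libraries above every DMSO library.

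The comparison at 2 h asks which of these genes changed first. It found 9 members lower and 0 higher with toyocamycin, at an adjusted p under 0.1 in the quasi-likelihood test of edgeR, with p-values adjusted by Benjamini-Hochberg over all 14491 genes tested. Over all those genes, 8.42% were lower and 0.518% higher, against 14.1% and 0% of the members. At an unadjusted p under 0.05, 14 members were lower and 1 was higher, and DESeq2 called 8 lower and 0 higher. Scaling on the mitochondrial genes, whose share was 1.42 and 3.47% in the DMSO libraries at 2 h, left 0 calls among the members. Over all genes it left 87 lower and 12 higher. The median log2 fold change was 0.02 over the members and 0.02 over all genes. The 9 members were MED18 and MED6 of the Mediator head, MED7 of the middle, MED13 and MED13L of the kinase module, the large polymerase I subunit POLR1B, POLR1C (shared by polymerases I and III), POLR2D of the polymerase II stalk and POLR3C of a polymerase III subcomplex.

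MED18 had 20.9 and 23.5 CPM in the DMSO libraries and 6.13 and 8.88 CPM in the toyocamycin libraries at 2 h. Its log2 fold change was -1.57 (standard error 0.20, edgeR quasi-likelihood adjusted p = 0.000129). MED13, which joins the kinase module to the rest of Mediator, went from 64.8 and 95.4 CPM to 34.8 and 35.3 CPM. Its log2 fold change was -1.19 (standard error 0.19, edgeR quasi-likelihood adjusted p = 0.000792). In both genes the arms did not overlap. For MED18 the gap between the arms was wider than that between the libraries of either arm, whereas for MED13 the DMSO libraries lay about as far from each other as from the toyocamycin libraries. MED6 had 22.5 and 18.5 CPM in DMSO and 13.3 and 10.5 CPM in toyocamycin, and POLR3C had 21.4 and 18.5 CPM against 11.9 and 11.9 CPM. POLR1C had 23.4 and 21.7 CPM against 11.5 and 14.8 CPM. These 3 fell by 0.78, 0.75 and 0.78 on the log2 scale, with edgeR quasi-likelihood adjusted p-values of 0.0145, 0.0157 and 0.0211.

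The remaining calls at 2 h lay near the threshold. MED7 had a log2 fold change of -1.06 (edgeR quasi-likelihood adjusted p = 0.0579) at 3.49 and 4.01 CPM in DMSO and 1.45 and 2.17 CPM in toyocamycin. POLR1B (-0.47), POLR2D (-0.57) and MED13L (-0.48) had edgeR quasi-likelihood adjusted p-values of 0.0809, 0.0841 and 0.0938, and each of these 3 lost its call when any of DMSO replicate 2 or the toyocamycin libraries was left out. MED7 was no longer called without DMSO replicate 2 or toyocamycin replicate 1, MED6 without toyocamycin replicate 2 (adjusted p = 0.162) and POLR1C without toyocamycin replicate 1 (adjusted p = 0.211).

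The labels tie replicate numbers to batches at 2 h. With the number as a block, 13 members were lower and 1 was higher, beside 1538 and 160 of all 14491 genes. The head subunit MED17 was then called higher (log2 fold change 0.75, adjusted p = 0.0977), and the catalytic subunits POLR2A (-0.39, adjusted p = 0.0845) and POLR3B (-0.51, adjusted p = 0.0968) were called lower. Within the batches taken one at a time, 24 members were lower in both and 24 were higher in both. All genes were not counted in this way.

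At 10 h many more members were lower. The fit over all 17 libraries called 30 lower and 11 higher, which is 46.9% and 17.2% of the members, beside 24.4% and 20.4% of the 16521 genes tested. The median was -0.57 over the members and 0.42 over all genes. No polymerase III subunit was called higher and 7 of 10 were lower, while 4 of the 7 shared subunits were higher and 1 was lower. Polymerase I had 1 higher and 4 lower of 6, polymerase II 3 higher and 4 lower of 11, and Mediator 3 higher and 14 lower of 30. Scaling by library size alone gave 6 higher and 36 lower members, beside 1872 and 5676 of all 16521 genes. Scaling on the mitochondrial genes, whose share was raised at 10 h, gave 0 and 37, beside 503 and 5362 of all genes.

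**Figure D1:**
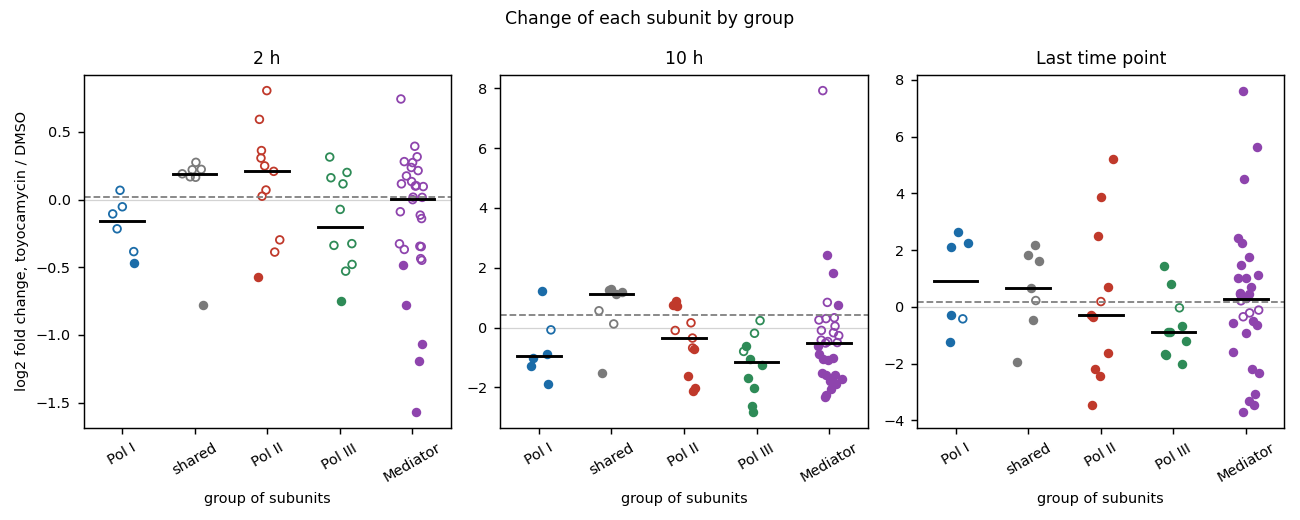
Log2 fold change of toyocamycin against DMSO (vertical axis, with its own range in each panel) for each subunit, by group, at 2 h, at 10 h and at the last time point. Filled points were called at an adjusted p under 0.1, black bars are group medians and the dashed line is the median of all genes tested. At 10 h the median of the shared subunits (1.13) lies above and that of the polymerase III subunits (-1.16) below the line.

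The large catalytic subunits were among the members that were lower at 10 h. POLR3A, the largest polymerase III subunit, had 88.5 CPM in the DMSO library and 12.1 and 12.8 CPM in the toyocamycin libraries (log2 fold change -2.83, edgeR quasi-likelihood adjusted p = 4.1e-07). Its partner POLR3B had 31.6 CPM against 4.28 and 6.19 CPM. POLR2A, the largest polymerase II subunit, had 448 CPM against 122 and 100 CPM, and POLR2B had 133 CPM against 29.2 and 32.5 CPM. POLR1A, the largest polymerase I subunit, had 243 CPM against 63.4 and 69.1 CPM. All 6 large subunits, POLR1B among them (80.1 CPM against 44.3 and 34.6 CPM), were lower in both toyocamycin libraries and passed the test.

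Small shared subunits went the other way at 10 h. POLR1D, shared by polymerases I and III, had 43.2 CPM in DMSO and 134 and 78.6 CPM in toyocamycin. POLR2F and POLR2E, shared by all 3 polymerases, had 64.7 and 167 CPM in DMSO, against 195 and 115 CPM for POLR2F and 503 and 256 CPM for POLR2E. POLR2L, also shared by all 3, had 57.9 CPM in DMSO but 189 and 63.3 CPM in the toyocamycin libraries. Its rise rested on replicate 1, which is of another batch than the DMSO library: without that library the log2 fold change was 0.13. Leaving out either toyocamycin library left 1 library an arm. The median log2 fold change of the members was then -0.77 in 1 case and -0.48 in the other. Over all genes it was 0.30 without replicate 1 and 0 without replicate 2. These medians have no replicate check of their own. For 14 of the 64 members the toyocamycin libraries did not lie on the same side of the DMSO library. One of them was MED27, at 15.4 CPM in DMSO and 27.8 and 9.39 CPM in toyocamycin.

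At 24 h and 48 h there was 1 library per arm, so these values have no replicate check and no p-value. Counting a log2 fold change past 1, 15 members were higher and 18 lower at 24 h, where 29.7% and 27.8% of all genes passed that fold. At 48 h, 22 members were higher and 20 lower, beside 38.1% and 29.9% of all genes. At 24 h the split was 23 higher and 15 lower with DESeq2 size factors, 6 and 30 with library size alone and 4 and 50 on the mitochondrial genes. At 48 h these scalings gave 23 and 19, 14 and 24, and 6 and 41.

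At the last time point nearly all members differed between the arms. The edgeR fit called 28 higher and 28 lower, or 43.8% each way, and 8 were not called. Of all 14491 genes, 47% were higher and 41.9% lower. The median was -0.07 over the members and 0.18 over all genes, and the median size of the change without its sign was 1.34 over the members and 1.93 over all genes. The split depended on the scaling, with 32 higher and 20 lower with DESeq2 size factors, 20 and 36 with library size alone and 13 and 36 on the mitochondrial genes. Over all genes these counts were 7447 and 5379, 5657 and 7297, and 4204 and 7362 in the same order. Those scalings moved the median of all genes by 0.32, -0.60 and -1.07 on the log2 scale.

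**Figure D2:**
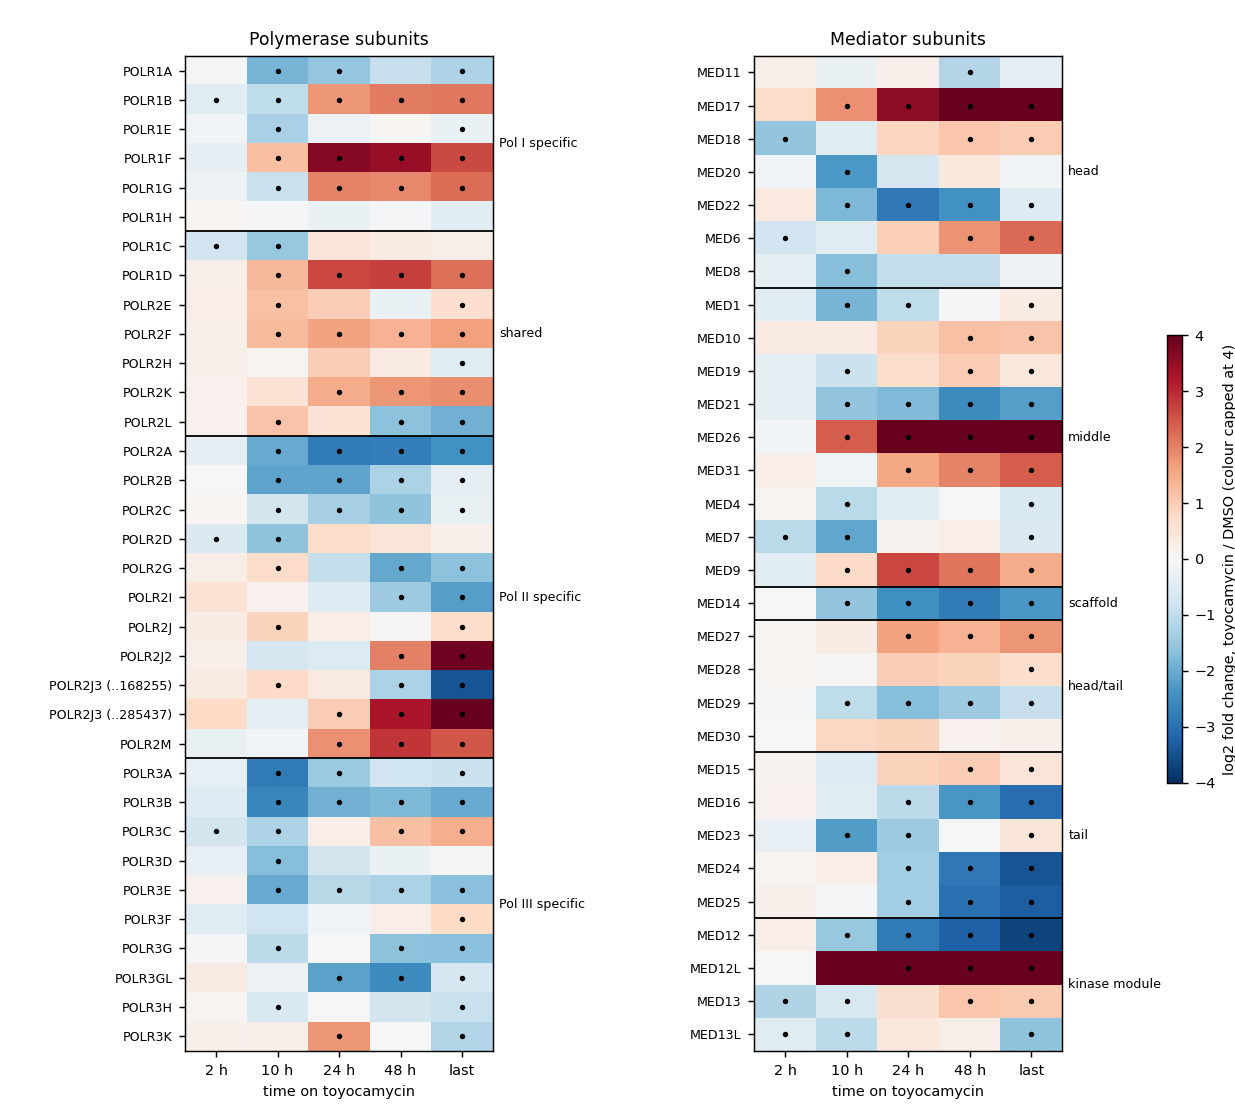
Log2 fold change of toyocamycin against DMSO for the 64 members (rows, by group) at each time (columns), with red for higher and blue for lower in toyocamycin. Dots mark calls, at an adjusted p under 0.1 at 2 h, 10 h and the last time point and past a log2 fold of 1 at 24 h and 48 h. MED12 and MED14 are blue and MED26 is red from 10 h on, and POLR1B turns from blue to red. POLR2A is blue and MED17 red at every time, palest at 2 h, where neither has a dot.

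The subunits particular to polymerase I were 3 higher and 2 lower of 6 at the last time point, with a median log2 fold change of 0.92. Under the 3 scalings this median ran from -0.15 to 1.24, the lowest on the mitochondrial genes. POLR1A, the largest subunit, had 194, 192 and 184 CPM in DMSO and 74.6, 73.8 and 90.1 CPM in toyocamycin, and its log2 fold change was -1.22 (standard error 0.13, edgeR quasi-likelihood adjusted p = 2.22e-07). POLR1B, its catalytic partner, had 92.7, 86.2 and 102 CPM in DMSO and 424, 378 and 383 CPM in toyocamycin, and rose by 2.11 (standard error 0.12, adjusted p = 2.97e-10). The large subunits of this polymerase thus moved in opposite directions, with no overlap of the arms in either gene. POLR1F, a stalk subunit, rose from 48.5, 40.5 and 58.3 CPM to 342, 288 and 266 CPM (log2 fold change 2.64). POLR1G and POLR1E form a pair on this polymerase: POLR1G rose by 2.24, while POLR1E was at -0.27 (adjusted p = 0.0717) and its sign turned with DESeq2 size factors (0.05). POLR1G shares its place with ERCC1 on the other strand.

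Of the 7 subunits shared between polymerases, 4 were higher and 2 lower. POLR1D had 64.8, 64.8 and 73.7 CPM in DMSO and 325, 312 and 277 CPM in toyocamycin, a 4.6-fold rise (edgeR quasi-likelihood adjusted p = 2.53e-10). POLR2K had 11.7, 11.7 and 19.7 CPM against 58.0, 46.9 and 47.3 CPM, and POLR2F had 81.4, 88.9 and 73.8 CPM against 247, 238 and 256 CPM, where POLR2F overlaps SOX10 and C22orf23 on the other strand. POLR2L moved the other way, from 100, 92.1 and 83.99 CPM to 22.0, 24.2 and 24.3 CPM, a 3.83-fold fall (adjusted p = 1.72e-07). All 4 of these genes had arms that did not overlap. When scaled on the mitochondrial genes POLR2F was at 0.55 on the log2 scale and lost its call. POLR2L overlaps CD151 on the other strand. POLR2H fell by 0.47 on the log2 scale, a call that was lost with DESeq2. POLR2E was at 0.67 and POLR1C at 0.23 (adjusted p = 0.184), and both turned negative when scaled on the mitochondrial genes (-0.44 and -0.82), POLR1C also by library size alone (-0.37). POLR2L was thus higher at 10 h in the combined fit and lower at the last time point.

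**Figure D3:**
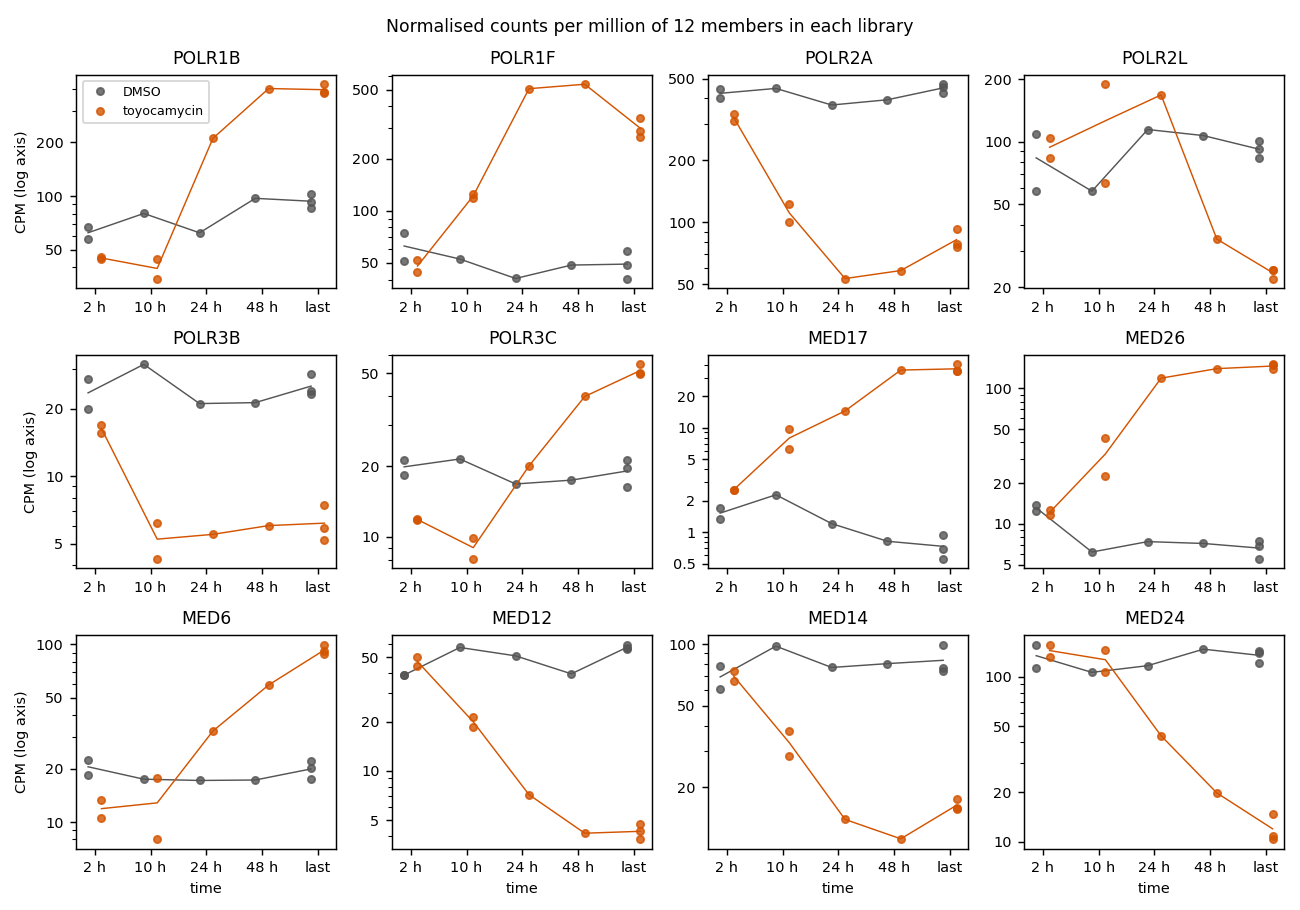
CPM (log axis) of 12 members in each library of DMSO (grey) and toyocamycin (orange) at each time, with lines through the means of each arm. POLR1B, POLR3C and MED6 lie below DMSO at 2 h and above it at the last time point. MED12 and MED14 lie below DMSO from 10 h on, and POLR2A and POLR3B at every time.

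Of the 11 genes in the polymerase II group, 4 were higher and 6 lower, with a median of -0.29 that turned to 0.04 with DESeq2 size factors. The higher ones were POLR2J, its copies POLR2J2 and POLR2J3 (ENSG00000285437), and the associated POLR2M. The lower ones were POLR2A, POLR2B, POLR2C, POLR2G, POLR2I and the other POLR2J3 copy. These counts and the median thus include the copies, whose counts are uncertain. POLR2A had 469, 456 and 425 CPM in DMSO and 75.4, 78.0 and 93.2 CPM in toyocamycin. It fell by 2.42 on the log2 scale, or 5.35-fold (standard error 0.13, edgeR quasi-likelihood adjusted p = 1e-10). It was also lower at 10 h, as given above, at 24 h, at 372 and 53.2 CPM, and at 48 h, at 394 and 58.2 CPM. At 2 h its log2 fold change was -0.39, which was not called without the replicate block. POLR2B, the other large subunit, was 2.11 lower at 10 h but 0.37 lower at the last time point (105, 104 and 128 CPM against 90.0, 77.3 and 87.0 CPM), where the call was lost without DMSO replicate 3 or toyocamycin replicate 2 (adjusted p = 0.111 and 0.104) and with DESeq2. POLR2B overlaps IGFBP7 on the other strand. POLR2G of the stalk fell by 1.63 and POLR2I, a small subunit at no more than 4.51 CPM in these DMSO libraries, by 2.19. The other stalk subunit, POLR2D, was at 0.19 (adjusted p = 0.245) and at -0.41 and -0.86 by library size and on the mitochondrial genes.

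POLR2M, which binds polymerase II and was counted in this group, rose from 14.7, 12.6 and 22.7 CPM to 108, 90.3 and 76.7 CPM (log2 fold change 2.49, edgeR quasi-likelihood adjusted p = 8.23e-08), and it overlaps GCOM1 on the same strand. POLR2J was at 0.69, and at -0.39 on the mitochondrial genes. Its near-identical copies went apart. The copy POLR2J3 (ENSG00000168255) fell from 7.28, 7.85 and 6.91 CPM to 0.69, 0.65 and 0.61 CPM, while POLR2J3 (ENSG00000285437) rose from 0.50, 0.42 and 0.26 CPM to 13.0, 17.6 and 11.99 CPM. Both copies lie on the same strand and overlap each other in the annotation, so reads could be split between them.

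Polymerase III had 7 subunits lower and 2 higher of 10. Its median of -0.88 stayed negative under the 3 scalings, from -1.97 to -0.56. POLR3B fell from 24.0, 23.3 and 28.5 CPM to 5.90, 7.41 and 5.21 CPM, a 4-fold fall (edgeR quasi-likelihood adjusted p = 7.08e-08). POLR3A fell less, from 71.1, 67.9 and 74.0 CPM to 39.4, 35.4 and 39.4 CPM (1.82-fold, adjusted p = 6.45e-06), after the fall of 2.83 on the log2 scale at 10 h. POLR3E and POLR3D form a pair on this polymerase: POLR3E fell by 1.67, whereas POLR3D was at -0.03 and not called. In the subcomplex of POLR3C, POLR3F and either POLR3G or POLR3GL, POLR3C rose 2.75-fold (adjusted p = 1.17e-07). It went from 16.3, 19.7 and 21.4 CPM to 54.6, 49.6 and 50.1 CPM. POLR3C overlaps RNF115 on the other strand. POLR3F was at 0.81. When scaled on the mitochondrial genes, POLR3C was at 0.41 and lost its call, and POLR3F was at -0.18. POLR3G, the form typical of dividing and stem-like cells, had 24.1, 23.3 and 34.7 CPM in DMSO and 11.8, 6.76 and 6.60 CPM in toyocamycin (3.2-fold lower, adjusted p = 4.57e-06). Its paralog POLR3GL was also lower, at 0.69 on the log2 scale (adjusted p = 0.0278), from 3.07, 2.74 and 3.61 CPM to 1.67, 1.95 and 2.09 CPM. This call was lost with DESeq2.

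Mediator had 15 subunits higher and 11 lower of 30 at the last time point, with a median of 0.27 that ran from -0.78 to 0.59 under the 3 scalings. The middle had 6 higher and 3 lower of 9, the head 3 higher and 1 lower of 7, the tail 2 higher and 3 lower of 5, the kinase module 2 and 2 of 4, and the subunits between head and tail 2 higher and 1 lower of 4. The scaffold MED14 was lower, from 74.1, 76.4 and 99.4 CPM to 15.9, 17.5 and 15.6 CPM (4.98-fold, edgeR quasi-likelihood adjusted p = 1.6e-09).

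In the head, MED17 had the largest rise. It had 0.69, 0.56 and 0.94 CPM in DMSO and 40.3, 34.7 and 34.7 CPM in toyocamycin, which is 50.3-fold higher (log2 fold change 5.65, standard error 0.22, edgeR quasi-likelihood adjusted p = 3.39e-12). Its toyocamycin level was 2.53 and 2.55 CPM at 2 h, 9.71 and 6.19 CPM at 10 h, 14.4 CPM at 24 h and 35.6 CPM at 48 h, and DMSO stayed at or below 2.28 CPM throughout. MED17 overlaps TAF1D on the other strand, and TAF1D rose by 1.72 on the log2 scale. MED17 also overlaps an annotated coding gene (ENSG00000284057) on the same strand. The part of these overlaps in its counts was not tested. MED6 rose from 17.5, 20.3 and 22.06 CPM to 99.9, 88.0 and 91.5 CPM (4.77-fold), and MED18 from 14.2, 14.7 and 15.4 CPM to 28.5, 27.6 and 31.0 CPM (2.01-fold), although the MED18 difference was -0.06 when scaled on the mitochondrial genes. MED22 fell by 0.50, a call lost with DESeq2.

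In the middle, MED26, the subunit that brings elongation factors to polymerase II, had 7.48, 6.87 and 5.54 CPM in DMSO and 150, 150 and 139 CPM in toyocamycin (22.6-fold higher, edgeR quasi-likelihood adjusted p = 1.22e-12). It was also higher at 10 h, at 6.20 CPM against 42.9 and 22.7 CPM. MED26 overlaps 2 annotated genes on the same strand. MED31 rose by 2.43 and MED21 fell by 2.20, the latter from 11.9, 13.5 and 15.5 CPM to 3.05, 2.59 and 3.04 CPM. MED4 fell by 0.62, a call lost with DESeq2, and MED7 was at -0.56 (adjusted p = 0.0623), a call lost without DMSO replicate 2 or 3 or toyocamycin replicate 2 and with DESeq2.

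The tail, which many activators bind, held the largest falls of Mediator outside the kinase module. MED24 had 140, 143 and 122 CPM in DMSO and 10.4, 10.8 and 14.7 CPM in toyocamycin, 10.98-fold lower (edgeR quasi-likelihood adjusted p = 5.94e-11). MED25 had 66.2, 66.8 and 48.4 CPM against 6.88, 6.12 and 4.95 CPM, and MED16 had 56.2, 60.9 and 39.8 CPM against 4.91, 5.93 and 7.56 CPM. These 3 genes were not called at 2 h or at 10 h in the combined fit. The log2 fold change of MED25 at 10 h was -0.58 with toyocamycin replicate 2 alone and 0.27 with replicate 1 alone, each with 1 library an arm. MED24 had 43.9 CPM at 24 h and 19.8 CPM at 48 h in toyocamycin. MED24 overlaps THRA and MED16 overlaps CFD on the other strand. MED15 and MED23 were called higher, at 0.51 and 0.47, but both turned negative by library size (-0.10 and -0.13) and on the mitochondrial genes (-0.60 and -0.57). Between head and tail, MED27 rose by 1.76 and MED29 fell by 0.91, while MED28 was at 0.70. On the mitochondrial genes MED27 was at 0.71 and lost its call, and MED28 was at -0.36.

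In the kinase module the paralogs moved in opposite directions. MED12, which activates the module's kinase, had 59.7, 55.9 and 56.6 CPM in DMSO and 3.83, 4.26 and 4.69 CPM in toyocamycin, 13.1-fold lower (edgeR quasi-likelihood adjusted p = 6.14e-12). MED12L had no counts in any DMSO library. In toyocamycin it had 1.08, 1.02 and 1.82 CPM, at least 9.42-fold higher against a floor of 3 counts per library. At 10 h its counts came from replicate 2 alone (3.43 CPM, none in replicate 1), the library with the highest summed fibroblast, endothelial and immune markers and the highest mitochondrial share, and their part in this value was not tested. MED12L spans 6 coding genes of the other strand. MED13 rose from 55.2, 52.9 and 65.1 CPM to 126, 104 and 116 CPM (2.05-fold), but was at -0.01 when scaled on the mitochondrial genes. Its paralog MED13L fell from 186, 193 and 211 CPM to 65.6, 64.6 and 60.0 CPM (3.03-fold lower, adjusted p = 1.56e-08). The other parts of this module carry no MED number: CDK8, CDK19 and CCNC were lower, with log2 fold changes of -1.24, -1.06 and -1.496.

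The promoters of the named genes with the largest rise and fall among the polymerase and the Mediator genes are shown, so that the sequence at the start of the genes that moved furthest can be read beside their values. The POLR2J copies and genes with no entry were left out. Members with low average counts were also not taken, which left out MED12L with its larger rise (7.63). They are RefSeq sequences of GRCh38.p14, from 250 bases before to 50 after the start, 5′ to 3′ on the strand of the gene. Capitals mark the motifs searched, which were the E-box CACGTG, the CCAAT box CCAAT, the GC box GGGCGG and the TATA box TATAAA, on both strands. In order, they are POLR1F (2.64, chr7:19708988-19709287, minus strand), POLR2A (-2.42, chr17:7484116-7484415, plus strand), MED17 (5.65, chr11:93784032-93784331, plus strand) and MED12 (-3.71, chrX:71118346-71118645, plus strand).
POLR1F: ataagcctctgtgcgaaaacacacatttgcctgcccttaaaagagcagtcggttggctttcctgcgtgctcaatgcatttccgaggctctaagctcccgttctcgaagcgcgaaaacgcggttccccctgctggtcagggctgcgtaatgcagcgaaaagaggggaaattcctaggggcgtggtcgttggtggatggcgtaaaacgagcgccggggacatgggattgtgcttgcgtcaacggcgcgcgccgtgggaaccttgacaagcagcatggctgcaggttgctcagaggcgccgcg
POLR2A: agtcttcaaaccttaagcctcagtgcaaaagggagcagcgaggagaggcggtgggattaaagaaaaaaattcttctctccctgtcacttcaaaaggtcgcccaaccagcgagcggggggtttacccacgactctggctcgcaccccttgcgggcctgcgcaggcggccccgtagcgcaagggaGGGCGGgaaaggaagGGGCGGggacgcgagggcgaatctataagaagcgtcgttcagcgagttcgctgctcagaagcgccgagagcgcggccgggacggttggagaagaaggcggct
MED17: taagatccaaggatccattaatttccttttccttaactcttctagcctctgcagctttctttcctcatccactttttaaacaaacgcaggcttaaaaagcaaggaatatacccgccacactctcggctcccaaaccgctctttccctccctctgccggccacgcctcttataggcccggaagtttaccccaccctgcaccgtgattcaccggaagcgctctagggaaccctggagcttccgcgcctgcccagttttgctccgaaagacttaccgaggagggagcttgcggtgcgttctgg
MED12: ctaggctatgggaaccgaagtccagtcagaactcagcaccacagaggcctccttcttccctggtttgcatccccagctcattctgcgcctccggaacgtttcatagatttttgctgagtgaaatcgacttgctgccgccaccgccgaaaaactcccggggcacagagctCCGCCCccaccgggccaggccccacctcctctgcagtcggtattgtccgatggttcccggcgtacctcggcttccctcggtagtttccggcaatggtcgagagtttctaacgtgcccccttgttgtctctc
POLR2A held 2 GC boxes and MED12 held 1, on the reverse strand, and neither POLR1F nor MED17 held any of the 4 motifs in this window. Of the 46 member symbols with an entry, 63.0% held a GC box, 28.3% a CCAAT box, 10.9% an E-box and 6.52% a TATA box. Over all 35116 promoter entries these shares were 44.95%, 34.6%, 7.26% and 11.5%. The members had a single entry per symbol. The 35116 entries were not reduced in this way, nor to the genes tested here, so the sets are unlike. A GC box was found in 13 of the 22 members called higher at the last time point and in 13 of the 19 called lower.

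The members called higher and lower differed in exon number, as did all genes. The canonical transcript had a median of 4.5 exons in the 28 members called higher and 8.5 in the 28 called lower, beside 7 and 11 over all tested genes called each way. Of the 27 members with 5 or fewer exons, 16 were higher and 6 lower, and of the 19 with 15 or more, 7 were higher and 12 lower. Over all tested genes, 63.9% of those with 5 or fewer exons were higher and 24.5% lower, and 30.2% of those with 15 or more were higher and 59.5% lower. Across the 64 members Spearman's rho between exon number and log2 fold change was -0.33, and across 14462 genes it was -0.30. This is a description across genes that share the same libraries and scaling. The 7 members with 15 or more exons and a rise were 36.8% of that bin, beside the 30.2% over all genes. They were MED12L (45 exons), MED13 (30), MED23 (29), MED15 (18), MED1 (17), POLR1B (15) and POLR3C (15).

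**Figure D4:**
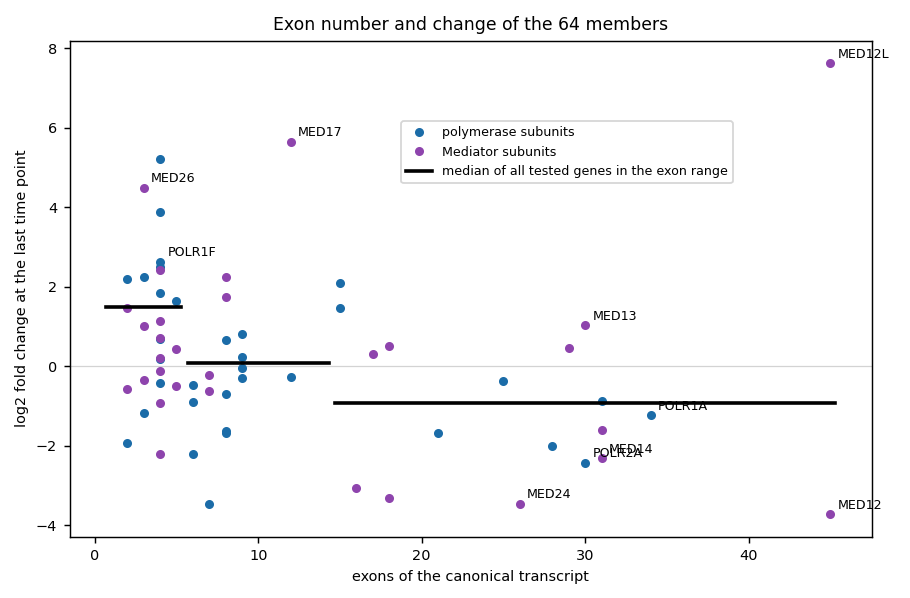
Exon number of the canonical transcript (horizontal axis) and log2 fold change at the last time point (vertical axis) of the 64 members, polymerase subunits in blue and Mediator subunits in purple. Black bars are the medians of all tested genes with 5 or fewer, 6 to 14 and 15 or more exons, at 1.505, 0.09 and -0.92.

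Levels were also compared between genes, as CPM per kilobase of the canonical transcript. In DMSO at the last time point the highest were POLR2L (105 ± 9.36, SD, n = 3) and POLR1D (97.8 ± 7.42), which did not differ beyond their spread, then POLR2E (84.5 ± 13.2) and POLR2A (71.3 ± 3.56), whose spreads also met. In toyocamycin POLR1D (440 ± 35.6) lay above all others, followed by POLR2E (132 ± 13.5) and POLR2F (119 ± 4.22), which did not differ beyond their spread. On this scale POLR2L went from rank 1 to 16 of the 64 members, POLR2A from 4 to 28 and MED24 from 10 to 52, while MED26 went from 58 to 10. The median level of the shared subunits was 48.2 in DMSO and 53.6 in toyocamycin, that of the polymerase III subunits 9.30 and 7.18, and that of the tail 25.9 and 3.44. The 6 subunits of polymerase I spread from 2.76 to 24.6 in DMSO and from 5.25 to 76.7 in toyocamycin.

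**Figure D5:**
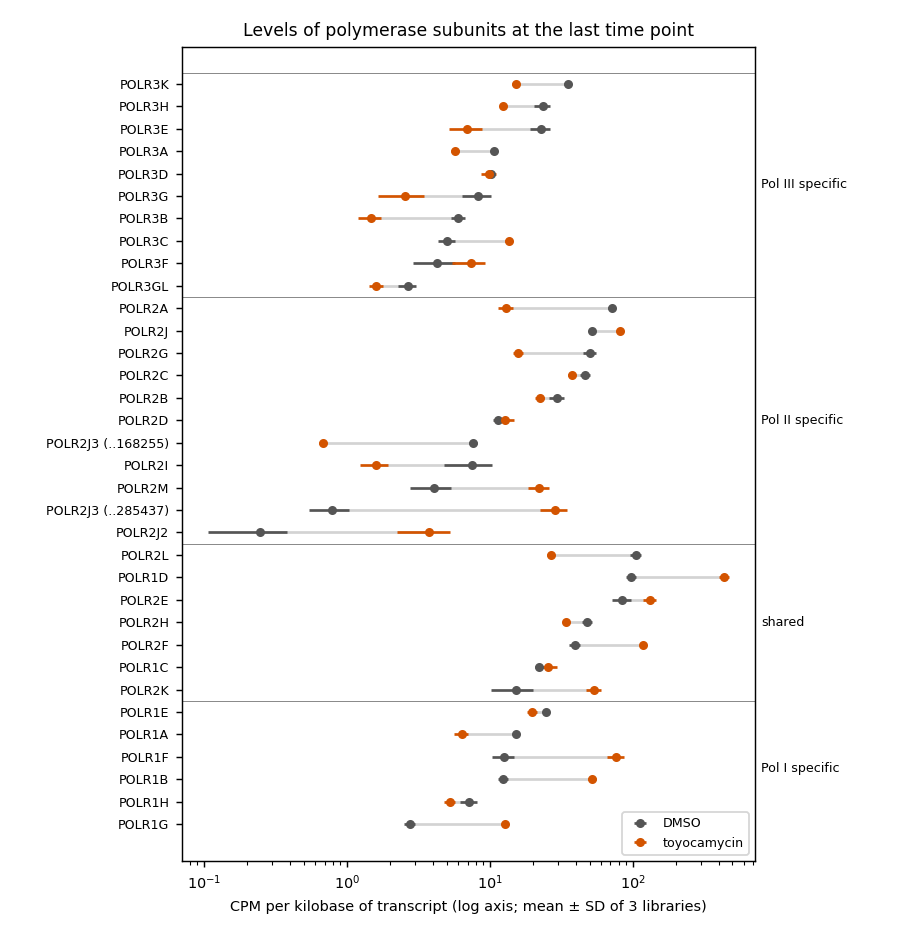
CPM per kilobase of transcript (log axis) of each polymerase subunit at the last time point, as mean ± SD of 3 libraries, in DMSO (grey) and toyocamycin (orange). POLR1D lies highest in toyocamycin at 440, and POLR2A drops from 71.3 to 13.0.

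The calls were followed from one time to the next. Of the 30 members called lower at 10 h, 18 were lower at the last time point, 7 were higher (POLR1B, POLR1G, POLR3C, MED1, MED13, MED19 and MED23) and 5 were not called. These are 60.0%, 23.3% and 16.7%, beside 64.2%, 24.1% and 11.8% of the 4033 genes called lower at 10 h among all those tested at both times. Of the 11 called higher at 10 h, 8 were higher at the last time point and 3 were lower (POLR2G, POLR2L and a POLR2J3 copy), or 72.7% and 27.3%, beside 59.4% and 33.1% over all genes called higher at 10 h. The difference between the toyocamycin effect at the last time point and that at 2 h was itself tested. It was called for 26 members in the higher and 24 in the lower direction, beside 38% and 38.1% of all genes. These counts were 30 and 21 with DESeq2 size factors, 19 and 30 by library size alone and 11 and 26 on the mitochondrial genes. Over all genes they were 6079 and 4996, 4526 and 6618, and 2810 and 5862 in the same order. In 5 members the effect was called lower at 2 h and higher at the last time point: MED6, MED13, MED18, POLR1B and POLR3C. These are 5 of the 9 lower at 2 h (55.6%), near the 60.6% of all 1220 genes lower at 2 h that were higher at the last time point. In the DMSO arm alone, 14 members were higher and 7 lower at the last time point than at 2 h, beside 10.2% and 11.4% of all genes. These DMSO libraries differ in batch as well, since 1 of the 2 at 2 h is of batch 2, and the counts were 15 and 6 with batch as a term. By library size alone they were 9 and 10, and on the mitochondrial genes 2 and 0. POLR1B, POLR1E and POLR1H of polymerase I were among those that were higher, by 0.59, 0.63 and 0.95 on the log2 scale.

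Genes that work with these complexes were taken from lists chosen beside the members. For comparison, 47% of all genes were higher and 41.9% lower at the last time point. Of the 7 polymerase I factors, 5 were higher and 2 lower at the last time point, with RRN3, which brings polymerase I to its promoters, at 2.59 and UBTF, which binds ribosomal DNA, at -1.67. Of the 30 general factors of polymerase II that were tested, 10 were higher and 12 lower, and TAF3 (5.38), TAF7 (4.83), ERCC2 (-3.30) and TAF12 (-2.92) had the largest values. Of the 16 polymerase III factors, 7 were higher and 8 lower, among them the initiation factor BRF1 at -2.30 and its relative BRF2 at 3.05. Of the 7 assembly factors 2 were higher and 4 lower. Of 5 genes outside the symbol rule, 4 were lower, which were CDK8, CDK19, CCNC and POLRMT. POLRMT is the mitochondrial RNA polymerase and no part of these complexes. The polymerase III stalk subunit CRCP was higher at 2.15. At 2 h, 5 of the 30 general polymerase II factors, 1 of the 16 polymerase III factors and CDK8 were lower. No gene of these lists was higher in the edgeR quasi-likelihood test at an adjusted p under 0.1. Over all genes 8.42% were lower and 0.518% higher. At 10 h, 15 of 30 polymerase II factors and 8 of 16 polymerase III factors were lower, and 2 and 4 were higher. Over all genes 24.4% were lower and 20.4% higher at that time.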

How the data were processed

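PolyA RNA of YB5 cells was sequenced as paired-end reads. Per the labels, the authors used STAR (2.7.5a) with the GRCh38 genome (GRCh38.100 in the paper), and the deposited values are raw read counts per gene, in whole numbers. The strand setting of the counting is not given in the sources used here. A second deposited table holds the authors' own edgeR comparisons (log2 fold changes, p-values and adjusted p-values of 5 contrasts) and was not used. Also, 1 column of per-sample counts has no sample among the labels used here and was left out. Its name reads as a first DMSO library at 10 h, so the 10 h values rest on 1 DMSO library, of batch 2.

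Gene identifiers were matched to GENCODE symbols for 19080 of 19141 genes. Counts were filtered with filterByExpr, scaled by TMM and tested with the quasi-likelihood test of edgeR 4.0.16 (R 4.3.3), at a Benjamini-Hochberg adjusted p under 0.1 over all genes tested. The 14 libraries other than those of 10 h were fitted together for 2 h, 24 h, 48 h and the last time point, and all 17 for 10 h, where the arms are unequal. At 24 h and 48 h a log2 fold past 1 was counted instead. Standard errors were approximated from the fold change and its F statistic. CPM values use the TMM factors of all 17 libraries, and per-kilobase levels use the length of the Ensembl canonical transcript. The labels give the samples as biological triplicates, although most groups hold fewer libraries here. The fit was tested on simulated data first.

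Alternatives were DESeq2 1.42.0, its size factors, library size alone, scaling on the 13 mitochondrial genes, other filters, libraries and thresholds, a replicate block and leaving out each library. At 2 h the replicate number is the batch, and deviations of same-numbered libraries correlated at 0.31. The named genes were the members called at 2 h, the large and the shared subunits, the largest rises and falls of each group at the last time point, and paralogs. Members, lists and rules were chosen with earlier results of these data known. A floor of 3 counts covers the error of counting alone, because the reads carry no molecular identifiers.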

Additional observations from a re-analysis of the deposited data

Results flagged for a closer look

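The effect of toyocamycin differed between the last time point and 2 h for 26 members in the higher and 24 in the lower direction, by the edgeR quasi-likelihood test of the difference itself. In 5 members (7.81%) the effect was called in opposite directions at the 2 times, beside 5.11% of all genes tested. Of the members called lower at 2 h, 55.6% were higher at the last time point, beside 60.6% of all genes called lower at 2 h. The difference between the effects on the log2 scale was 3.0334 for MED6, 2.5787 for MED18, 2.5748 for POLR1B, 2.2244 for MED13 and 2.2061 for POLR3C. The edgeR quasi-likelihood adjusted p-values of these differences were 1.69e-08, 2.02e-07, 1.27e-08, 6.5e-07 and 3.99e-07 in the same order. In each of these 5 genes both toyocamycin libraries lay below both DMSO libraries at 2 h, and all 3 lay above all 3 DMSO libraries at the last time point. The calls of POLR1B and MED6 at 2 h depended on single libraries. At the last time point MED13 and MED18 changed sign when scaled on the mitochondrial genes. POLR3C was then at 0.41 and lost its call.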

How the results depend on the processing

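Of 2003 alternatives for named members, 1775 kept direction and call, 100 lost the call, 44 gained it, 20 reversed and 64 changed sign in members called neither way. Of 396 alternatives for the medians of the members and their groups, 167 moved by more than the spread between libraries and 229 did not. Among counts of members, 114 stayed within 1.5 times and 28 did not. The cause was not tested. At 2 h the 9 lower calls became 5 at an adjusted p under 0.05, 4 with all 17 libraries fitted, 3 with only the libraries compared, 0 on the mitochondrial genes and 4 to 12 with a library left out. The 0 higher calls became 1 with at least 10 counts in every library, 1 with the replicate block and 0 to 2 with a library left out. At 10 h the 11 higher calls became 6 by library size and 0 on the mitochondrial genes. At 24 h the 15 higher became 23 with DESeq2 size factors, 6 by library size and 4 on the mitochondrial genes, and the 18 lower became 30 and 50 by the last pair. At 48 h the 22 higher became 14 by library size and 6 on the mitochondrial genes, and the 20 lower became 41 on the latter. At the last time point the 28 higher became 13 on the mitochondrial genes and the 28 lower became 18 with at least 10 counts in every library, where the higher were 29. For the difference between times the 26 higher became 11 on the mitochondrial genes. In DMSO the 14 higher became 9 by library size and 2 on the mitochondrial genes, and the 7 lower became 4 at an adjusted p under 0.05 and 0 on the mitochondrial genes.

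On the mitochondrial genes, reversed values at the last time point were -0.0138 (MED13), -0.5958 (MED15), -0.0555 (MED18), -0.5665 (MED23), -0.3623 (MED28), -0.8152 (POLR1C), -0.858 (POLR2D), -0.4419 (POLR2E), -0.3884 (POLR2J) and -0.1764 (POLR3F), and at 10 h -0.2345 (POLR2J) and -0.3718 (POLR2J3, ENSG00000168255). By library size they were -0.0953 (MED15), -0.1324 (MED23), -0.3722 (POLR1C) and -0.4097 (POLR2D). POLR1E turned to 0.0093 with at least 10 counts in every library, 0.0496 with DESeq2 size factors and 0.0498 with DESeq2. MED27 at 10 h was -0.7079 without toyocamycin replicate 1 and 0.8641 without replicate 2.

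At the last time point same-numbered libraries did not deviate together (correlations of -0.11, 0.04 and -0.09), so the numbers do not pair them. The replicate block there gave 28 higher and 27 lower members. Depth limits low members: MED12L, the POLR2J copies, POLR2I and MED17 in DMSO lay at a few CPM or below, and 24 h and 48 h have 1 library per arm.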
